A study of Mus musculus with 12 samples.

Results

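The genes described here are 10 regulators of cell cycle transcription in mouse embryonic fibroblasts: the E2F family members E2f1, E2f3, E2f7 and E2f8, the pocket protein genes Rb1, Rbl1 and Rbl2, the forkhead factor gene Foxm1, and the cyclin-dependent kinase (CDK) inhibitor genes Cdkn1b and Cdkn2c. They were chosen by name, keeping those present among the 12591 genes of the expression table, and each was found by its Ensembl identifier. That 10 of 10 were present follows from this choice. The cells came from the C57 PER2::LUC strain, heterozygous knock-in mice whose PER2 clock protein carries a luciferase tag, and had been immortalized. Confluent dishes were treated for 24 h with 10 µM DZ (3-deazaneplanocin A, an inhibitor of adenosylhomocysteinase), 1 mM adenine or 1 mM SAM (S-adenosylmethionine, the methyl donor of most methyltransferases), and the control without these compounds is called CTL. Every dish, CTL included, also received 3.3 mM HCl, the vehicle of adenine. Messenger RNA was sequenced from 3 dishes per group, 12 libraries in all, to ask how far an excess of SAM or adenine acts on the transcriptome like the inhibition of the methyl cycle by DZ. The dishes held one cell population, so the p-values below measure the spread between dishes and not between animals.

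As background, E2F factors bind DNA together with a DP partner and switch on genes for DNA replication as a cell leaves G1. In resting cells the pocket proteins RB, p107 (from Rbl1) and p130 (from Rbl2) hold them inactive, with p130 forming the repressive DREAM complex on the MuvB core. Cyclin D and cyclin E kinases phosphorylate the pocket proteins and release the E2Fs, and CDK inhibitors such as p27 (from Cdkn1b) and p18 (from Cdkn2c) oppose these kinases. Later in the cycle B-MYB and FOXM1 join MuvB to switch on mitotic genes, while the atypical repressors E2F7 and E2F8 shut down G1/S genes again.

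Promoters of the regulators that moved most under both adenine and SAM are shown first, with Rbl2 for comparison, since several of these genes are known targets of E2F themselves. Each is 300 bases, 250 before to 50 after a start site, read 5′ to 3′ on the gene's own strand. The sequences are RefSeq's (table built on GRCm38.p6), and the positions are from exact matches in GRCm39. They lie at chr10:110581050-110581349 (E2f7, plus strand), chr7:48531295-48531594 (E2f8, minus strand), chr2:157046405-157046704 (Rbl1, minus strand), chr8:91796435-91796734 (Rbl2, plus strand), and chr4:109522520-109522819 and chr4:109523904-109524203 (Cdkn2c, minus strand, inner and outer start). Capitals mark matches on either strand to the E2F consensus (TTTCCCGC, TTTCGCGC, TTTGCCGC or TTTGGCGC) and to the CHR element of mitotic and DREAM-bound promoters (TTTGAA or TTCGAA).
E2f7: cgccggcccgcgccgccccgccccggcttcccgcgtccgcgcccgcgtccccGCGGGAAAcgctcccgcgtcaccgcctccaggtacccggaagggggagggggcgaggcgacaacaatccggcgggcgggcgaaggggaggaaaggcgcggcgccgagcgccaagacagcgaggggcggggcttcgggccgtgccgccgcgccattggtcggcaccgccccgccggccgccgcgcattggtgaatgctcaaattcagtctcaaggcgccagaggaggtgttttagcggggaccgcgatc
E2f8: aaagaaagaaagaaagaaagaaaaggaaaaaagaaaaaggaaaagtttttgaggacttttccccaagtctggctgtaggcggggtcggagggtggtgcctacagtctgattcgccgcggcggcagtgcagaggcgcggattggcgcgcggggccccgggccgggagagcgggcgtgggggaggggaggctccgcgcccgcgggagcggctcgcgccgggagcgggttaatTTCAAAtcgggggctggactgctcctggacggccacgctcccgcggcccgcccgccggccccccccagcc
Rbl1: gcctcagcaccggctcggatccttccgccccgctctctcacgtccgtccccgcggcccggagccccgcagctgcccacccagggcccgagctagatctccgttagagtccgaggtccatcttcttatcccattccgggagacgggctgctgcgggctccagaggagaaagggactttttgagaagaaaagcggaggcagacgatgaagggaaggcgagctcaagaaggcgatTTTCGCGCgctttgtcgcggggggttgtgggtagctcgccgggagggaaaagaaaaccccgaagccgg
Rbl2: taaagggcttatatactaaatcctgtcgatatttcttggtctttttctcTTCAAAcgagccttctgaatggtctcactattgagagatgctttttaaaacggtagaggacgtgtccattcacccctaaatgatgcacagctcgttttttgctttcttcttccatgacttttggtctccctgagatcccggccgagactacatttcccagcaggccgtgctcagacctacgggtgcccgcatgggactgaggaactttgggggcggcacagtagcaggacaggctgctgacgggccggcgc
Cdkn2c, inner start: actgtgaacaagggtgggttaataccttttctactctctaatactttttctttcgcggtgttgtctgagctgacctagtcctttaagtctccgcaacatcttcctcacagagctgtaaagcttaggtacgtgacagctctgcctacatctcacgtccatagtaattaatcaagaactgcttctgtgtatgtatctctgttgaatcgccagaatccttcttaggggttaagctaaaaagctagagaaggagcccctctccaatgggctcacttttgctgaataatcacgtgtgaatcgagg
Cdkn2c, outer start: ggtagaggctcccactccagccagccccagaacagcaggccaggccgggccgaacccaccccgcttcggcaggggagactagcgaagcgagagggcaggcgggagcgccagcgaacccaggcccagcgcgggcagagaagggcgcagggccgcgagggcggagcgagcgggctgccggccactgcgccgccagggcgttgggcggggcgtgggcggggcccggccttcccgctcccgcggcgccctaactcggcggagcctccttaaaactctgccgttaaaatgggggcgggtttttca

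The RefSeq table held 10 promoters of 8 members and none for Rb1 or Foxm1. An E2F match was found in E2f7 (left end at -198 from the start site), Rbl1 (-18) and 1 of the E2f3 promoters (-11), against 2.26% of 32851 mouse promoters of the same length that hold one. A CHR match lay at -20 in E2f8, -201 in Rbl2 and -23 in the same E2f3 promoter, and 19.2% of all promoters hold one. The CCAAT box was present in 37.4% and the SP1 box, GGGCGG, in 35.7% of all promoters. Promoters of 1 chromosome, which holds none of the members, were left out of all these shares. No E2F or CHR letters occurred in the windows of E2f1, Cdkn1b or Cdkn2c. However, the E2f1 window (chr2:154411297-154411596) and both Cdkn2c windows lay inside the annotated genes, whose 5′ ends are at 154411812 and 109524386. The bases just before those 5′ ends were not searched, so a lack of matches there is not shown. Matches of different motifs did not overlap in the windows of the members, and a match of letters is a description and not a binding site.

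**Figure D1:**
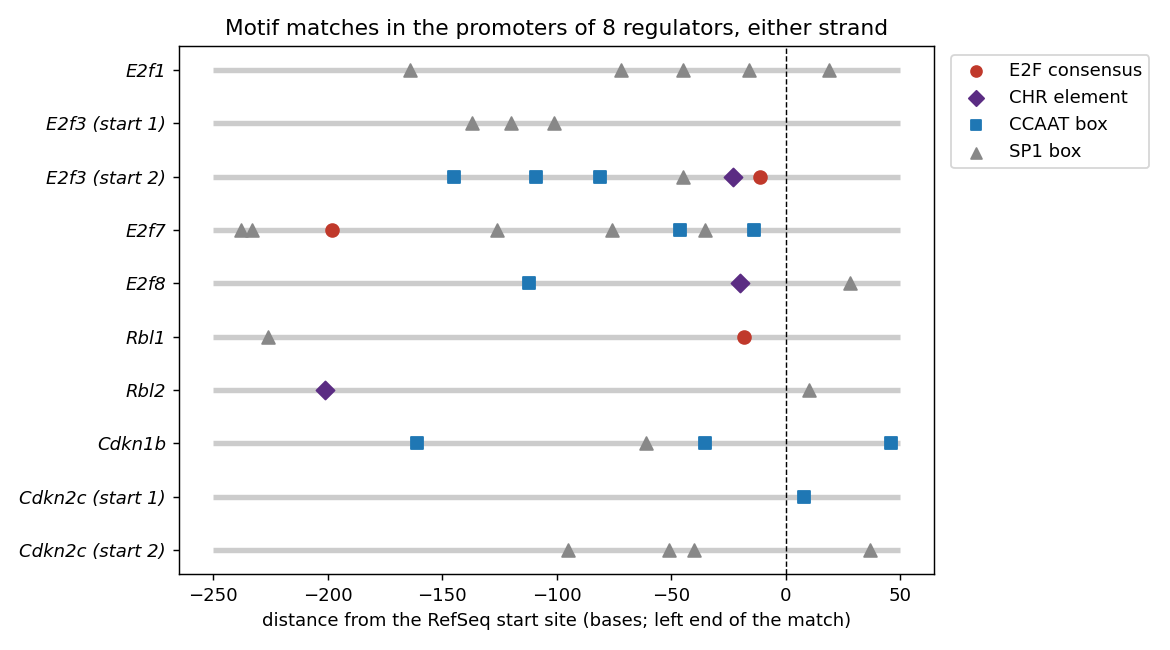
Positions of motif matches (symbols by motif) in the 10 promoters of 8 regulators, plotted as distance in bases from the RefSeq start site, with grey bars from 250 bases before to 50 after it. The E2F matches of Rbl1 and E2f3 lie at -18 and -11, close to the start, and that of E2f7 lies at -198.

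Levels are given as log2 CPM, the deposited log2 of counts scaled to library size, and a gene was called changed where limma's moderated test over all 12591 genes gave a Benjamini-Hochberg adjusted p below 0.01. Under adenine 7 of the 10 regulators were called higher and 1 lower, against a background of 30.6% of all genes called higher and 31% called lower. Under SAM 7 were again called higher and 1 lower, where 33.7% of all genes were higher and 35.7% lower. DZ gave 4 higher and 1 lower, beside 22.6% and 23.4% of all genes. The median log2 fold change of the 10 was 1.05 under adenine, 1.26 under SAM and 0.093 under DZ, while that of all genes was -0.0030, -0.015 and -0.0057. All 3 comparisons use the same CTL libraries, so they are not independent of each other. With 3 libraries against 3 an exact permutation test cannot give a p below 0.1, so single-gene calls rest on the spread shared across genes in the limma fit. In such bulk RNA a change in the share of cells in a phase of the cycle and a change in RNA per cell cannot be told apart.

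**Figure D2:**
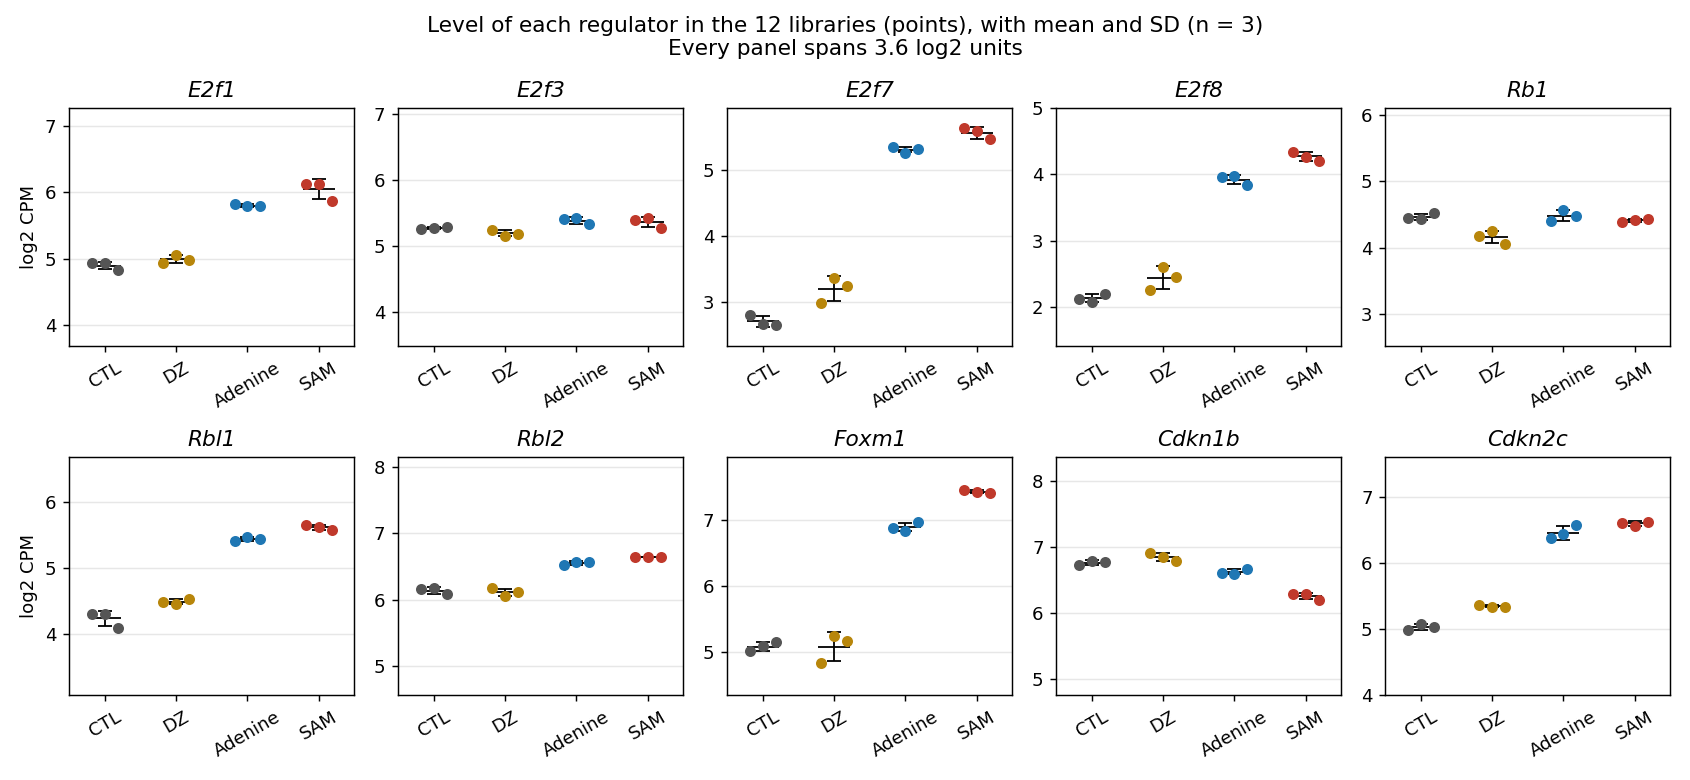
Level of each regulator in log2 CPM (vertical axis, with the same log2 span in every panel) in CTL, DZ, adenine and SAM libraries. Points are libraries, and bars give the mean and SD of 3. The adenine and SAM points of E2f7, E2f8, Foxm1, Rbl1 and Cdkn2c sit above all CTL and DZ points, and those of Cdkn1b sit below them.

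The activator E2F genes behaved differently from each other. E2f1 (chr2:154401326-154411812), whose product drives entry into S phase, read 4.93, 4.93 and 4.83 log2 CPM in the CTL libraries and 4.93, 5.06 and 4.98 with DZ. It rose to 5.82, 5.79 and 5.79 with adenine and to 6.13, 6.13 and 5.87 with SAM. Both 1 mM groups were clear of CTL and DZ in every library, whereas DZ and CTL overlapped. The log2 fold change of E2f1 was 0.91 ± 0.062 (SE, adjusted p = 3.24e-09, limma) with adenine and 1.15 ± 0.062 (adjusted p = 1.20e-10) with SAM. E2f3 (chr13:30090558-30170046), the other activator measured, stayed between 5.16 and 5.43 log2 CPM in all 12 libraries. Its log2 fold changes of -0.076 under DZ, 0.11 under adenine and 0.090 under SAM did not pass the test, with adjusted p of 0.176, 0.0405 and 0.0903 from limma. Scaled by plain read totals, E2f3 was called higher under adenine (0.17) and SAM (0.21). That scaling moved the median of all genes to 0.059 under adenine and to 0.11 under SAM, which leaves differences of E2f3 from that median close to those above. E2f2, the remaining activator, is not in the table, which lists only genes that passed the filter of at least 1 CPM in all samples.

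E2f7 had the highest fold change of the 10 regulators under all 3 treatments. This gene (chr10:110581300-110623245) encodes an atypical E2F that represses without a DP partner. Its CTL libraries read 2.81, 2.67 and 2.65 log2 CPM and its DZ libraries 2.99, 3.36 and 3.25. With adenine it stood at 5.34, 5.26 and 5.31, and with SAM at 5.63, 5.59 and 5.46. No library of one group overlapped with another group. The level was 6.05-fold higher with adenine (log2 fold change 2.60 ± 0.082, SE, adjusted p = 5.21e-13, limma), 7.21-fold higher with SAM (2.85 ± 0.082, adjusted p = 7.57e-14) and 1.41-fold higher with DZ (0.49 ± 0.082, adjusted p = 0.000118).

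E2f8 (chr7:48516176-48531452), its partner in repression, had the fewest reads of the members, with 191 in its lowest library. It read 2.12, 2.08 and 2.19 log2 CPM in CTL, and 2.26, 2.60 and 2.45 with DZ. Adenine libraries were at 3.96, 3.97 and 3.84, and SAM libraries at 4.34, 4.27 and 4.21. Here too the 4 groups were separate, though the lowest DZ library came close to the highest CTL library. E2f8 rose 3.46-fold with adenine (log2 fold change 1.79 ± 0.086, SE, adjusted p = 4.44e-11, limma) and 4.42-fold with SAM (2.14 ± 0.086, adjusted p = 3.36e-12). Its smaller difference under DZ, 0.30 ± 0.086 (adjusted p = 0.00720, limma), was not called by voom on reads (adjusted p = 0.0290) or in a fit of DZ and CTL alone (adjusted p = 0.0344). It was also lost without CTL replicate 1 (log2 fold change 0.30), CTL replicate 2 (0.28), DZ replicate 2 (0.22) or DZ replicate 3 (0.30). Fewer libraries entered those fits, and why the call was lost was not tested.

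The pocket protein genes took 3 different courses. Rbl1 (chr2:156987813-157046475), which encodes p107 and is itself switched on by E2F in cycling cells, read 4.30, 4.31 and 4.10 log2 CPM in CTL and 4.48, 4.46 and 4.53 with DZ. It reached 5.40, 5.47 and 5.44 with adenine and 5.65, 5.62 and 5.57 with SAM. The groups did not overlap, and the difference from CTL was 0.25 ± 0.054 (SE) under DZ (adjusted p = 0.00112, limma), 1.20 ± 0.054 with adenine (adjusted p = 2.06e-11) and 1.37 ± 0.054 with SAM (adjusted p = 2.61e-12).

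Rbl2 (chr8:91796664-91850492) encodes p130, the pocket protein of resting cells. Its CTL libraries were at 6.16, 6.17 and 6.08 log2 CPM and its DZ libraries at 6.17, 6.06 and 6.11, which overlap. Adenine libraries stood at 6.52, 6.57 and 6.57, and all 3 SAM libraries at 6.65. The rise of Rbl2 was thus smaller than that of Rbl1 but separate from CTL in every library, at 0.41 ± 0.036 (SE) with adenine (adjusted p = 4.43e-08, limma) and 0.51 ± 0.036 with SAM (adjusted p = 2.53e-09). Under DZ its log2 fold change of -0.026 did not pass the test, with a 95% interval from -0.10 to 0.050.

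Rb1 (chr14:73421113-73563507), the gene of the retinoblastoma protein, was the one member called lower under DZ. It read 4.45, 4.43 and 4.52 log2 CPM in CTL against 4.17, 4.25 and 4.06 with DZ, with no overlap, a log2 fold change of -0.30 ± 0.059 (SE, adjusted p = 0.000457, limma). With adenine it stood at 4.40, 4.57 and 4.47, and with SAM at 4.39, 4.42 and 4.43. Both groups overlapped with CTL, with 95% intervals of the log2 fold change from -0.11 to 0.14 under adenine and from -0.18 to 0.076 under SAM. The genes Rcbtb2 and Lpar6 lie within or across Rb1 on the opposite strand, as do Aktip at Rbl2 and Rhno1 at Foxm1. The library kit keeps the strand, but whether strand was used in counting was not stated, so reads of these pairs may be shared.

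Compared per length of the canonical transcript, the balance of the 3 pocket protein transcripts shifted. Their summed level was 22.5 ± 0.659 CPM per kb (SD, n = 3) in CTL, 22.1 ± 0.468 with DZ, 32.3 ± 0.863 with adenine and 34.5 ± 0.251 with SAM. Rbl1 made up 17.1% of that sum in CTL, 20.7% with DZ, 27.4% with adenine and 28.9% with SAM, and its libraries ranged from 16.1% to 17.7% in CTL and from 28.2% to 29.5% with SAM. The share of Rb1 was 19.6%, 16.1%, 13.8% and 12.3% in the same order. Rbl2 remained the most abundant in every library, with 63.3% in CTL, 63.2% with DZ and 58.8% with each of adenine and SAM. On the same per-length scale the ratio of E2f7 plus E2f8 to E2f1 plus E2f3 was 0.128 ± 0.0054 (SD, n = 3) in CTL, 0.167 ± 0.018 with DZ, 0.394 ± 0.0030 with adenine and 0.428 ± 0.021 with SAM. The summed level of E2f7 and E2f8 therefore stayed below that of E2f1 and E2f3 in every group, although E2f7 alone (8.59 CPM per kb) exceeded E2f3 (8.10) with SAM. These ratios were not tested.

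Foxm1 (chr6:128339518-128353147), the forkhead factor that drives mitotic genes, rose with adenine and SAM and had no call with DZ. Its CTL libraries read 5.01, 5.09 and 5.15 log2 CPM and its DZ libraries 4.84, 5.24 and 5.17, lying on both sides of CTL. Adenine libraries were at 6.88, 6.83 and 6.96, and SAM libraries at 7.45, 7.42 and 7.40. Foxm1 was 3.50-fold higher with adenine (log2 fold change 1.81 ± 0.076, SE, adjusted p = 8.59e-12, limma) and 5.07-fold higher with SAM (2.34 ± 0.076, adjusted p = 2.76e-13). Under DZ the log2 fold change was -0.00057 with a 95% interval from -0.16 to 0.16, and it was positive without DZ replicate 1 (0.12, adjusted p = 0.0429, limma), CTL replicate 2 (0.0015) or CTL replicate 3 (0.034).

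Among the CDK inhibitors the 2 members moved in opposite directions under adenine and SAM. Cdkn1b (chr6:134897364-134902476) encodes p27, which blocks cyclin E and cyclin A kinases and is high in resting cells. It read 6.72, 6.78 and 6.77 log2 CPM in CTL and 6.91, 6.85 and 6.79 with DZ. Adenine libraries stood at 6.61, 6.59 and 6.67, and SAM libraries at 6.29, 6.28 and 6.20. The fall was 0.704-fold under SAM (log2 fold change -0.51 ± 0.038, SE, adjusted p = 5.51e-09, limma), with the SAM libraries below all others. Under adenine Cdkn1b fell by 0.13 on the log2 scale (SE 0.038, adjusted p = 0.00479, limma), again without overlap with CTL. That smaller call was not kept with plain read totals (-0.073), without a variance trend (adjusted p = 0.0127), or without CTL replicate 2 (-0.12), CTL replicate 3 (-0.13), adenine replicate 1 (-0.13) or adenine replicate 2 (-0.12). Under DZ the difference of 0.090 did not pass the test (adjusted p = 0.0522, limma).

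Cdkn2c (chr4:109517957-109524386) encodes p18, which blocks CDK4 and CDK6, the kinases of cyclin D. Its CTL libraries were at 4.98, 5.08 and 5.03 log2 CPM, its DZ libraries at 5.37, 5.34 and 5.34, its adenine libraries at 6.37, 6.43 and 6.57, and its SAM libraries at 6.61, 6.56 and 6.62. All treated libraries exceeded all CTL libraries, and adenine and SAM overlapped with each other. The gene rose 1.25-fold with DZ (log2 fold change 0.32 ± 0.046, SE, adjusted p = 2.59e-05, limma), 2.68-fold with adenine (1.42 ± 0.046, adjusted p = 5.88e-13) and 2.96-fold with SAM (1.57 ± 0.046, adjusted p = 8.20e-14).

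**Figure D3:**
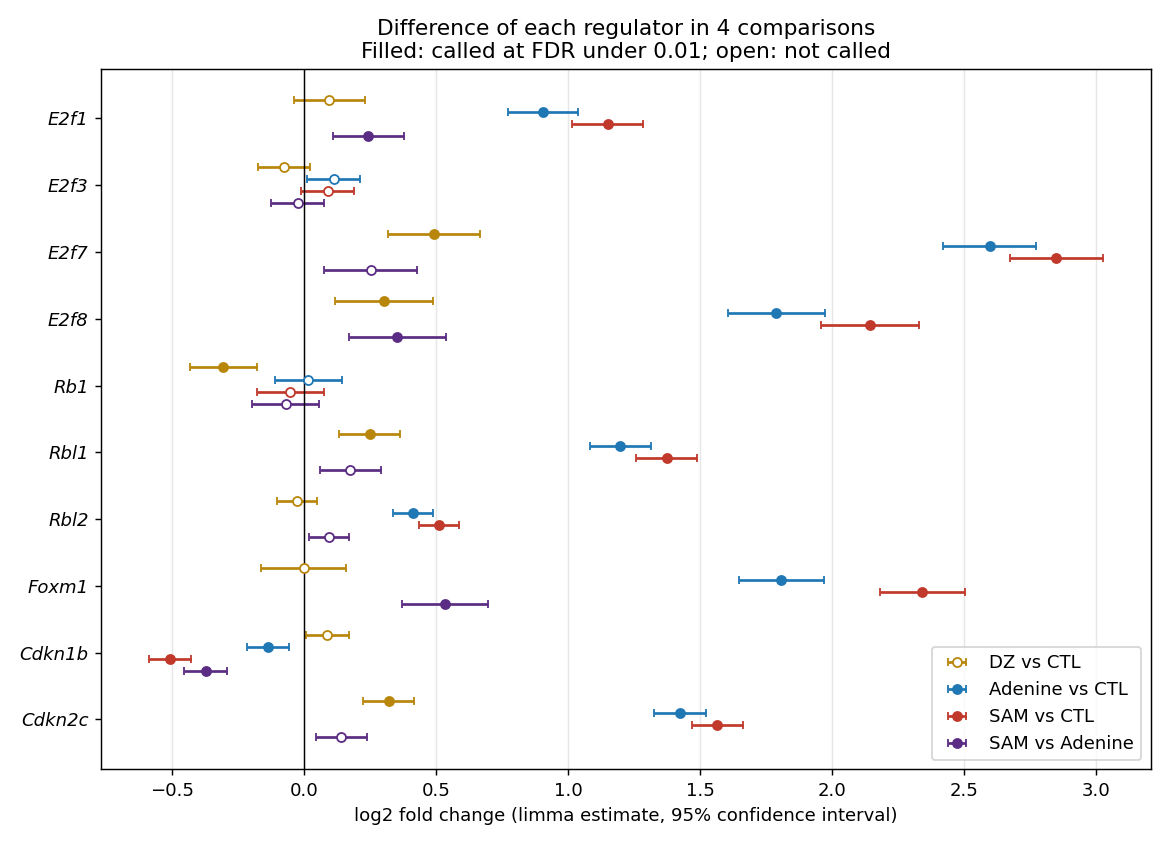
Log2 fold change of each regulator (horizontal axis, limma estimate with its 95% confidence interval) in 4 comparisons, with filled points called at an adjusted p below 0.01. E2f7 reaches 2.60 under adenine and 2.85 under SAM, whereas its DZ value is 0.49, and E2f3 stays near 0 in all 4.

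Adenine and SAM were given at the same dose for the same time and were compared directly. SAM gave higher levels of Foxm1, by 0.53 ± 0.076 on the log2 scale (SE, 95% interval 0.37 to 0.70, adjusted p = 3.00e-05, limma), of E2f8, by 0.35 ± 0.086 (0.17 to 0.54, adjusted p = 0.00282), and of E2f1, by 0.24 ± 0.062 (0.11 to 0.38, adjusted p = 0.00384). Cdkn1b was lower with SAM than with adenine by 0.37 (log2 fold change -0.37 ± 0.038, interval -0.45 to -0.29, adjusted p = 9.91e-07). These 4 of 10 compare with 20.8% of all genes called higher and 22% called lower with SAM than with adenine. E2f7 (0.25, interval 0.078 to 0.43), Rbl1 (0.18, 0.060 to 0.29), Cdkn2c (0.14, 0.045 to 0.24) and Rbl2 (0.096, 0.021 to 0.17) missed the threshold although their intervals lay above 0. Rb1 (-0.068, -0.19 to 0.059) and E2f3 (-0.023, -0.12 to 0.076) had intervals that crossed 0. The difference in E2f1 was lost without a variance trend (adjusted p = 0.0111, limma), and without adenine replicate 2 (0.24), adenine replicate 3 (0.24), SAM replicate 1 (0.20) or SAM replicate 2 (0.20), and that in E2f8 without adenine replicate 3 (0.31) or SAM replicate 1 (0.32), while Cdkn2c was called without adenine replicate 3 (0.20). Without SAM replicate 1 only 2 of the 10 regulators were called, while fits without single libraries called 4490 to 4955 of all genes. With plain read totals the split became 7 higher and 1 lower, as that scaling moved all genes from 2617 higher and 2765 lower to 3573 and 2081. For adenine against CTL the members' split became 8 higher and none lower, while all genes moved from 3850 higher and 3903 lower to 4572 and 3264. For SAM against CTL all genes moved from 4237 higher and 4494 lower to 5462 and 3462. DZ was given at 10 µM, so its values stand beside the others without a test.

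The wider pathway was read from lists of genes by role, chosen with earlier results of these data known. Of 13 other E2F, DP and MuvB genes 12 were in the table (E2f2 was not), and 6 were called higher and 1 lower under adenine, 8 and 0 under SAM, and 3 and 3 under DZ. The shares of all genes called higher and lower were 30.6% and 31% under adenine, 33.7% and 35.7% under SAM, and 22.6% and 23.4% under DZ, so the DZ counts were close to the background. Mybl2, the gene of B-MYB, rose by 1.94 ± 0.092 (log2 fold change, SE) under adenine, 2.25 under SAM and 0.57 under DZ. Its relative Mybl1 rose by 1.93 under adenine and 2.30 under SAM. Its value of -0.34 under DZ (adjusted p = 0.00932, limma) was not called with voom (adjusted p = 0.0388), with plain read totals (-0.31), or without any single CTL library (-0.31, -0.32 and -0.38), DZ replicate 1 (-0.22) or DZ replicate 3 (-0.34). Among the MuvB core genes, Lin54, whose product binds the CHR element, rose by 0.52 with DZ, 0.96 with adenine and 1.03 with SAM. Lin9 rose by 1.22 under adenine and 1.46 under SAM, with 0.064 under DZ not called. The other core genes Lin37, Lin52 and Rbbp4 were not called under adenine (0.0028, 0.13 and -0.037). Under SAM Lin52 (-0.014) was not called, while Rbbp4 (0.18) and Lin37 (0.23) were called higher. The SAM call of Lin37 was lost without CTL replicate 1 (0.21), CTL replicate 2 (0.21) or SAM replicate 2 (0.22). The DP partner gene Tfdp1 rose by 0.40 under adenine and 0.56 under SAM. The 1 gene lower under adenine was E2f5 (-0.27), a call lost with plain read totals (-0.21) and without CTL replicate 1 (-0.22) or adenine replicate 3 (-0.23). Those lower under DZ beside Mybl1 were Tfdp2 (-0.21) and Rbbp4 (-0.12), the latter not called without CTL replicate 2 (-0.10) or DZ replicate 2 (-0.11). E2f4, the repressor E2F of DREAM, was not called in any comparison, with log2 fold changes of 0.062, 0.022 and 0.048. The DZ count was 2 higher and 4 lower with median centring and 3 higher and 2 lower with plain read totals, and fell from 6 to 3 genes in all without CTL replicate 2. The adenine count was 6 higher and 0 lower with plain read totals.

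Of 16 other CDK inhibitor and RB kinase genes 15 were in the table (Cdkn1c was not), with 11 higher and 0 lower under adenine, 11 and 2 under SAM, and 4 and 4 under DZ. Beside the 22.6% and 23.4% of all genes called under DZ its counts were close to the background, whereas adenine and SAM calls were mostly higher, beside 30.6% and 33.7% of all genes. Cdkn1a, which encodes the CDK inhibitor p21, rose by 0.54 ± 0.090 (log2 fold change, SE) under adenine, whereas it fell by 1.16 under SAM and by 0.75 under DZ. Its difference between SAM and adenine was -1.70 ± 0.090 (adjusted p = 7.04e-10, limma), the widest of the list. The other gene lower under SAM was Cdk7 (-0.16), which encodes the CDK-activating kinase, a call lost with plain read totals (-0.039) and without any single CTL library (-0.16 in each case) or SAM replicate 2 (-0.11). The INK4 genes Cdkn2a, Cdkn2b and Cdkn2d rose under adenine (0.34, 0.41 and 0.95) and SAM (0.71, 0.85 and 1.48), as did Cdkn2c. Ccnd1, the gene of cyclin D1, rose by 0.38, 1.10 and 1.61 under DZ, adenine and SAM. Ccnd2 rose by 0.68 under adenine, with -0.038 under SAM not called, and was lower with SAM than with adenine by 0.72 (log2 fold change -0.72, adjusted p = 7.18e-09, limma). The cyclin E genes Ccne1 and Ccne2, both E2F targets, rose by 1.20 and 1.61 under adenine and by 1.57 and 2.07 under SAM, and under DZ their values of -0.018 and 0.075 were not called.

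A further list held genes that control the level of p27 or its transcript, 10 of 10 in the table. Under adenine 7 were called higher and 1 lower, beside 30.6% and 31% of all genes, and with median centring 4 higher and 1 lower. Under SAM 7 were higher and 1 lower, beside 33.7% and 35.7% of all genes. Skp2 and Cks1b, parts of the ubiquitin ligase that marks p27 for destruction, rose by 0.88 and 0.86 under adenine and by 1.24 and 1.10 under SAM. Rnf123, the ligase that acts on p27 in the cytoplasm in G1, fell by 0.65 under adenine and by 0.84 under SAM. Foxo1, Foxo3 and Foxo4, forkhead factors known to switch on Cdkn1b, rose by 0.41, 0.34 and 0.20 under adenine and by 0.38, 0.23 and 0.28 under SAM, although Foxo4 was not called under adenine with median centring (0.15) or without CTL replicate 3 (0.15). Under DZ 3 were higher and 2 lower, beside 22.6% and 23.4% of all genes, a count of 5 that fell to 1 without CTL replicate 1 and to 2 without CTL replicate 2 or any single DZ library, and became 3 and 0 with plain read totals and 2 and 2 with median centring. Between SAM and adenine 3 were higher and 2 lower, 4 and 0 with plain read totals, and 3 genes in all without adenine replicate 3.

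**Figure D4:**
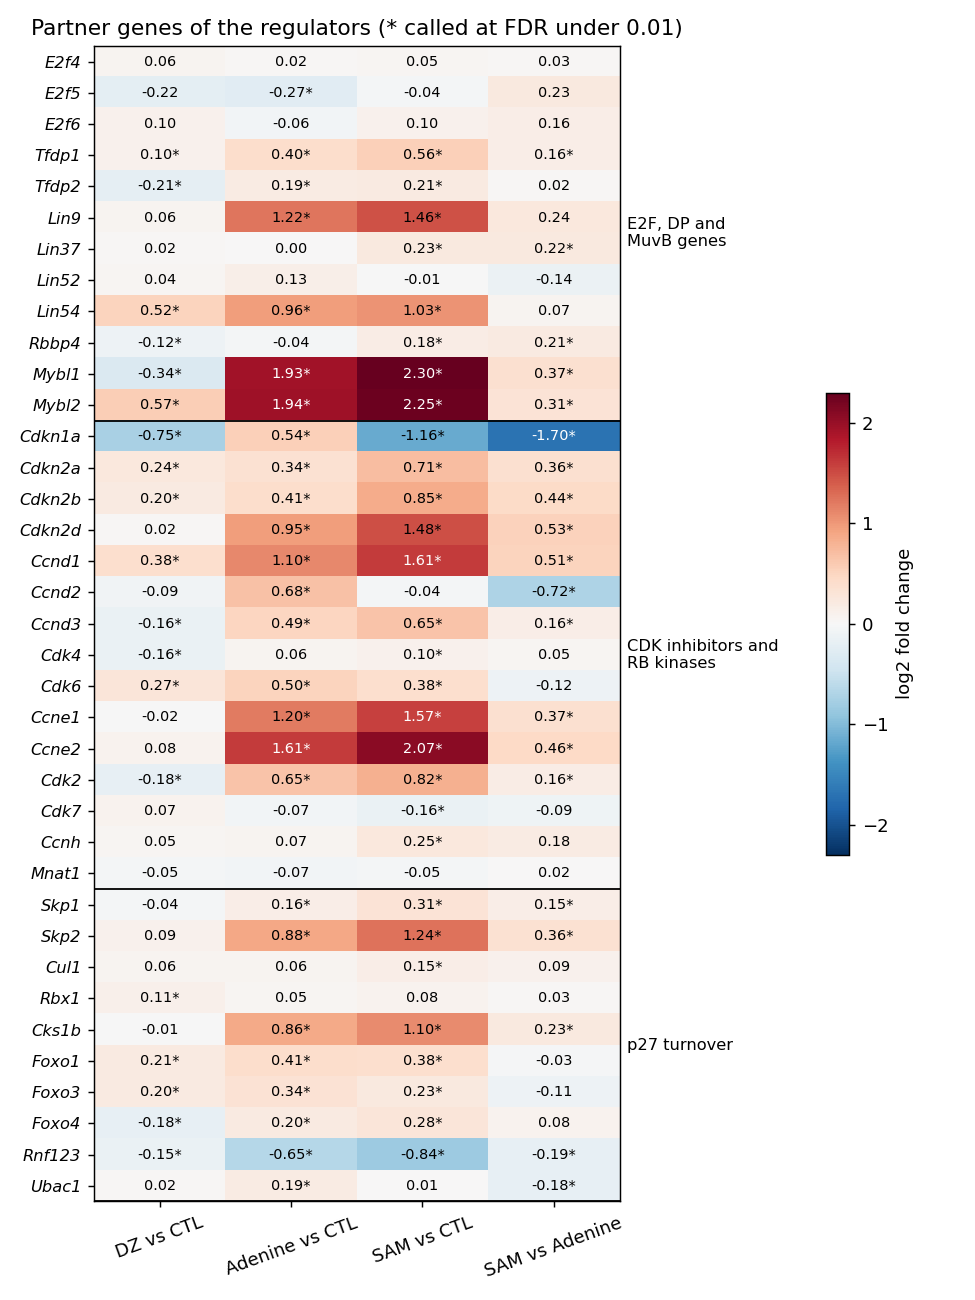
Log2 fold change (colour and number) of the partner genes in the table, by list, in the 4 comparisons, with an asterisk where the adjusted p was below 0.01. Mybl1 and Mybl2 reach 2.30 and 2.25 under SAM, and Cdkn1a is at 0.54 under adenine and -1.16 under SAM.

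The listed known targets of these regulators followed the adenine and SAM treatments almost without exception. These lists too were chosen with earlier results of these data known, so their counts are a description and not an independent test. Of 35 G1/S genes regulated by E2F, 34 were called higher and 1 lower under each of adenine and SAM. Of all genes 30.6% were called higher and 31% lower under adenine, and 33.7% and 35.7% under SAM. The list had a median log2 fold change of 1.28 under adenine and 1.63 under SAM. Highest under adenine were Brca1 (2.40 ± 0.068, SE), Tk1 (2.36) and Cdc6 (2.06), which act in DNA repair, thymidine salvage and origin licensing. Under SAM Tk1 led with 3.00, followed by Cdc6 and Brca1, both at 2.80. The exception was Mcm2, a subunit of the replicative helicase, which fell by 0.11 (adjusted p = 0.00693, limma) and by 0.13 (adjusted p = 0.00147). With plain read totals Mcm2 was not called under adenine (-0.046) or SAM (-0.0098). Its adenine call was also lost without a variance trend (adjusted p = 0.0208, limma) and without CTL replicate 1 (-0.10), CTL replicate 3 (-0.082), adenine replicate 1 (-0.11) or adenine replicate 2 (-0.091), and its SAM call without CTL replicate 3 (-0.11). Of 34 G2/M genes regulated by FOXM1 and B-MYB with MuvB, all 34 were called higher under both, with medians of 1.61 and 2.00. Under adenine the cyclin gene Ccnb2 (2.14 ± 0.065, SE), the proliferation marker Mki67 (2.02) and the centromere histone gene Cenpa (1.97) came first. Under SAM these were the mitotic kinase gene Aurkb (2.71 ± 0.061), Kif2c (2.56) and the checkpoint gene Bub1b (2.42).

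DZ gave a weaker and uneven picture in the target lists. Under DZ 22.6% of all genes were called higher and 23.4% lower. Of the G1/S genes 24 of 35 were called higher and 1 lower (Mcm7, -0.11 ± 0.029, adjusted p = 0.00448, limma), with a median of 0.27 beside -0.0057 for all genes. Tk1 (0.89 ± 0.060) and Orc1 (0.60), a subunit gene of the origin recognition complex, were among those that rose most. Of the G2/M genes 13 of 34 were higher and 1 lower (Hmmr, -0.26 ± 0.077, adjusted p = 0.00873, limma), with a median of 0.11. Tpx2 (0.54 ± 0.047), Ccnb1 (0.38) and Aurkb (0.36) rose most. Neither Mcm7 (-0.085) nor Hmmr (-0.24) was called with plain read totals or without a variance trend (adjusted p = 0.0121 and 0.0217, limma). The call of Mcm7 was lost without CTL replicate 1, CTL replicate 2, DZ replicate 1 or DZ replicate 3 (-0.10, -0.10, -0.11 and -0.11), and that of Hmmr without CTL replicate 1, CTL replicate 3 or DZ replicate 1 (-0.25, -0.23 and -0.15). The count of G2/M genes called under DZ fell from 14 to 9 without CTL replicate 1 or DZ replicate 3, and reached 17 without 1 of the other libraries. DZ replicate 1 read lowest of the DZ libraries in Foxm1 (4.84, against 5.24 and 5.17), E2f7 (2.99, against 3.36 and 3.25), E2f8 (2.26, against 2.60 and 2.45) and E2f1. It read highest of them in E2f3, Rbl2, Cdkn1b and Cdkn2c. What set that dish apart was not tested. Between SAM and adenine 32 of 35 G1/S and 26 of 34 G2/M genes were higher with SAM and none lower, with medians of 0.36 and 0.40. Of all genes 20.8% were called higher and 22% lower in that comparison.

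**Figure D5:**
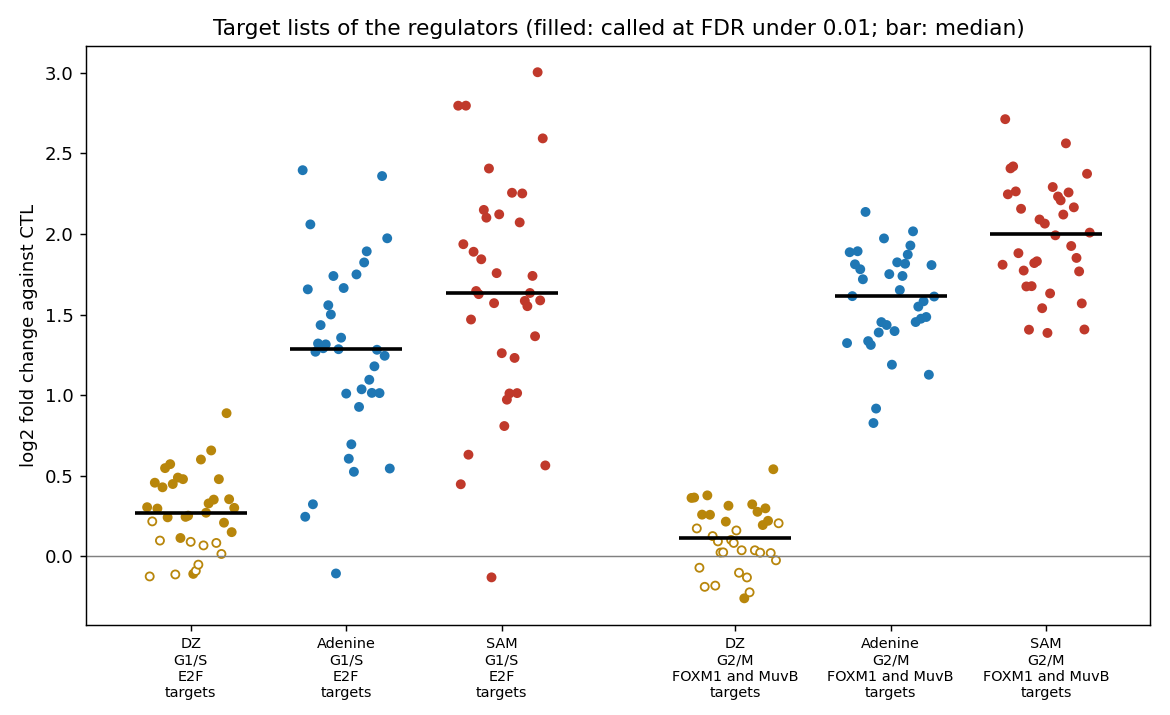
Log2 fold change against CTL (vertical axis) of each gene of the G1/S list (35 genes) and the G2/M list (34 genes) under DZ, adenine and SAM. Points are genes, filled where called at an adjusted p below 0.01, and bars are medians, which are 0.27, 1.28 and 1.63 for G1/S and 0.11, 1.61 and 2.00 for G2/M.

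The genes whose pattern lay nearest to each regulator were found by the root mean square (RMS) difference of log2 values, each taken relative to the gene's own CTL mean, over the 9 treated libraries. Foxm1 was nearest to Gtse1 (RMS 0.077) and Bub1 (0.082), and E2f8 to Pole (0.080) and Kif23 (0.081), all of them cell cycle genes. Rbl1 lay nearest to Atad2 (0.057) and Ccdc34 (0.059), Cdkn2c to Rtel1 (0.073) and Zmat1 (0.088), and E2f1 to Cep152 (0.089) and Hexim1 (0.094). E2f7, with its steep rise, had more distant neighbours, Aqp1 (0.16) and Brca1 (0.17). Rbl2 was nearest to Trim24 (0.043) and Def8 (0.047), Cdkn1b to Os9 (0.046) and Rccd1 (0.053), Rb1 to Zfp995 (0.059) and Srsf1 (0.063), and E2f3 to Zfp592 (0.041) and Edrf1 (0.042). Among the regulators themselves the closest pairs were E2f3 with Rb1 (0.18), Rbl1 with Cdkn2c (0.19) and E2f8 with Foxm1 (0.22). The RMS is small for any pair of genes that move little. E2f3 and Rb1 were both not called under adenine or SAM, and under DZ Rb1 was called lower (-0.30) while E2f3 was not called (-0.076).

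The libraries held 45649534 to 56789090 reads over the genes of the table, and the members had between 191 reads (E2f8) and 10380 reads (Foxm1) per library. Of 12 fibroblast markers 10 were in the table, with a summed level of 24634 to 25165 CPM in CTL, 31319 to 32061 with DZ, 28857 to 31489 with adenine and 20203 to 21753 with SAM. The sum under SAM turns on Fn1, the fibronectin gene, which fell from 12094 to 4066 CPM (log2 fold change -1.58 ± 0.051, SE). Of the 10 markers 8 were called higher and 1 lower under SAM, beside 33.7% and 35.7% of all genes. Dcn and Lum are not in the table. Of 10 leukocyte markers only Cd68 and Cd74 were, and their summed level was 106 to 111 CPM in CTL, 86.7 to 96.3 with DZ, 136 to 153 with adenine and 182 to 200 with SAM. Most of it was Cd74, while Cd68 had a mean of 3.49 CPM in CTL, 3.25 with DZ, 11.5 with adenine and 16.8 with SAM. Both were called higher under adenine and SAM, beside 30.6% and 33.7% of all genes. Under DZ 1 was called lower and none higher, beside 23.4% and 22.6% of all genes. The part of Cd68 and Cd74 in the results was not tested, and the defining leukocyte gene Ptprc is not in the table. None of 7 epithelial or 6 endothelial markers was listed. As a gene needed at least 1 CPM in all samples, a marker high in only some groups would be missing too. Absent markers therefore cannot show that other cells were lacking.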

How the data were processed

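RNA-seq libraries were made from 12 dishes, 3 per group. The authors trimmed reads (Trimmomatic), aligned them to GRCm39 with GENCODE annotation (HISAT2), counted them (StringTie), dropped genes below 1 CPM in any library (edgeR) and deposited log2 CPM values. Tool versions and the scaling method are not given in the sources used here. As the deposited unit is log2, limma 3.58.1 (R 4.3.3) was fitted with a variance trend to all 12 libraries, with 4 group means, Benjamini-Hochberg adjustment over 12591 genes and a threshold of 0.01. Whole reads, within a tolerance of 0.01, were recovered from the values (prior count 2) for depth and for voom, the count-type alternative. The fit and the read recovery were tested on simulated data with 200 changed genes. Of 12591 identifiers 12575 matched GENCODE vM39, which gave positions and lengths.

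Members, lists and the rule for named genes (of the target lists, the 3 highest called and those against the majority; 2 nearest patterns per member; promoters of members with a log2 fold change of at least 1 under adenine and SAM) were chosen with earlier results of these data known. One gene that the rule names under DZ is not reported here. Alternatives were scaling, variance trend, a minimum level, a pseudocount, a threshold of 0.05, voom, fits of 2 groups, a replicate block and leaving out each library.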

Additional observations from a re-analysis of the deposited data

How the results depend on the processing

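Of 600 values of members recomputed under 21 alternatives, 552 kept both direction and side of the threshold, 20 lost the call, 18 gained one and 10 changed sign, none of the last from a called value. The sign changes were Foxm1 under DZ (0.025 with plain read totals, -0.078 to 0.12 without single libraries), Rb1 under adenine (-0.035 with median centring, -0.026 to 0.056 without single libraries) and under SAM (0.071 with plain read totals), and E2f3 between SAM and adenine (0.037 with plain read totals, -0.055 to 0.023 without single libraries). Members called between SAM and adenine numbered 8 with plain read totals, 7 with voom, 8 at a threshold of 0.05 and 2 to 4 without single libraries. Of all genes 3573 were called higher and 2081 lower with plain read totals, and 4490 to 4955 were called without single libraries. The main fit had 2617 higher and 2765 lower. The counts of all genes with voom and at 0.05 are not given here, and the wider threshold can only add calls. E2F, DP and MuvB genes called in that comparison numbered 8 with plain read totals, 8 at 0.05 and 2 to 3 without single libraries, and under DZ 3 to 5. Under DZ the p27 list had 2 calls without a variance trend, 3 with plain read totals and 1 to 4 without single libraries. The G2/M list under DZ had 8 without a trend, 9 with voom, 9 in a fit of 2 groups and 9 to 17 without single libraries. Of all genes 4953 to 5244 were called under DZ without single libraries, beside 2840 higher and 2942 lower in the main fit. The p27 list had 5 calls under adenine with median centring, and between SAM and adenine 3 in a fit of 2 groups and 3 to 5 without single libraries. The causes were not tested. A fit without a library also holds fewer libraries.

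The main fit took no pairing by replicate number. Deviations of same-numbered libraries correlated between -0.142 and 0.181, which cannot decide whether dishes were handled in sets, as differently numbered libraries were not compared. With a replicate block the p27 list had 3 calls under DZ, E2f8 under DZ was not called (0.30, adjusted p = 0.0107, limma) and 4 members were called under DZ. Of all genes 5762 were called under DZ in that fit. E2f8 had the fewest reads, from 191 per library.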
